A study of Sus scrofa with 12 samples.

Results

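Chromatin loops that carried the end of a protein-coding gene on each of their anchors, of different genes, numbered 11777 of the 122406 loops called in any of 4 libraries from pig skeletal muscle. A loop was counted as such a gene-gene loop where each 5-kb anchor lay within 1 kb of the start or the end of a coding gene and the anchors reached at least 2 different genes. They were set against the 37765 loops with a coding gene end on 1 anchor only, called 1-end loops here. Of the remaining loops, 71106 had no coding gene end on either anchor and 1758 reached only the ends of the same gene.

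The loops came from H3K27ac BL-HiChIP of the longissimus muscle of 2-week-old piglets, a method that joins DNA lying close together in the nucleus and then keeps the fragments bound by an antibody against acetylated lysine of histone H3. The breeds were Large White (LW), a commercial lean pig, and Meishan (MS), a local Chinese pig, with 2 libraries each. No treatment or genetic change was applied to either. The study's methods name male piglets but do not tie the libraries to animals, so that the p-values measure only the spread between libraries. GRID-seq lists of RNA contacts on chromatin, again 2 per breed and from the same tissue and age, were used as a second readout.

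H3K27ac marks active promoters and enhancers. Loops that bring the ends of different genes together are commonly discussed as contacts between promoters, through which a promoter can also act on a neighbouring gene, and housekeeping and tissue-specific genes are both known to take part in them. A 5-kb anchor is coarse at this scale: 5149 gene-gene loops (43.7%) had exactly 1 coding gene at each anchor, and in 2020 (17.2%) a gene reached both anchors beside the pair of different genes.

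Loop strength was defined as -log10 of its deposited false discovery rate (FDR), and all loops had an FDR under 0.01. Strength so defined measures the evidence that contacts exceeded those expected, and not the size of the excess. The lists hold no contact counts, so the depth behind a loop is unknown. The libraries did not group by breed. Of the gene-gene loops in either list of a pair, LW replicate 2 and MS replicate 2 shared 30.4% and the replicate 1 libraries 21.9%, whereas the LW replicates shared 21.6% and the MS replicates 21.7%. Muscle identity could be read only from the GRID-seq lists, in which 9 of 13 muscle fibre markers, ACTA1, CKM and TTN among them, were listed in each of the 4 libraries, with RYR1, MYH1, MYH2 and MYH4 not listed under these names. Of the fibroblast markers 2 of 4 (COL1A1 and COL1A2) were listed in each, and none of the adipocyte, endothelial, leukocyte or erythroid markers.

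Gene-gene loops made up 9.34% to 12.3% of each library, and the breeds could not be told apart by this share. LW replicate 1 held 5327 (9.34% of its loops) and LW replicate 2 held 4748 (11.0%). MS replicate 1 held 4730 (10.5%) and MS replicate 2 held 4089 (12.3%). The shares of LW and MS overlapped and differed by -1.22 percentage points (p = 0.667, 2-sided exact permutation test, n = 2 libraries per breed, a design whose smallest p is 0.333). Among loops with a coding gene end on at least 1 anchor, gene-gene loops were 23.2% and 23.7% in LW, with 24.3% and 25.4% in MS. Here both MS libraries lay above both LW libraries, at the smallest p that the exact permutation test could give (0.333).

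Over the chromosomes, chromosome 12 had the most gene-gene loops for its genes, 1079 loops or 96.3 per 100 coding genes, and 17.5% of all its loops were gene-gene. Chromosome 1, with more coding genes (1610 against 1121), had 781 gene-gene loops, 48.5 per 100 coding genes, or 6.63% of its loops. Chromosome X had 31.5 per 100 coding genes.

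With ends counted within 1 kb, gene-gene loops were shorter than 1-end loops in every library. Their median distance was 50 kb in both LW libraries, 55 kb in MS replicate 1 and 45 kb in MS replicate 2, where 1-end loops had medians of 65, 60, 70 and 55 kb in the same order. The mean difference was -12.5 kb ± 2.89 (SD, n = 4 libraries), which gave p = 0.125 in the exact permutation test of paired signs, the smallest p that 4 libraries allow. The size of this difference depended on how near an end had to be, from -1.25 kb where the anchor had to overlap the gene end to -25.0 kb where 5 kb was allowed. Under the overlap rule the direction was lost as well, since the medians were equal in LW replicate 2 and gene-gene loops were the longer in MS replicate 2. Loops between adjacent 5-kb bins were 13.0% and 16.0% of gene-gene loops in LW, with 11.4% and 16.5% in MS, and gene-gene loops over 500 kb were 1.60% and 3.14% in LW, with 2.07% and 2.67% in MS.

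**Figure D1:**
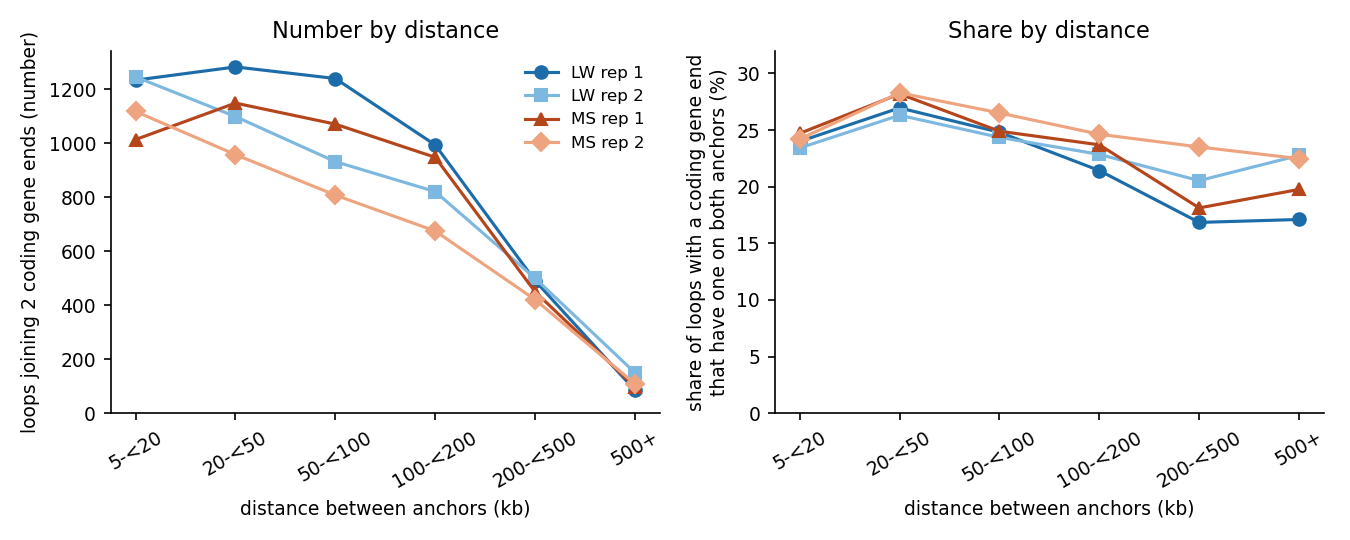
Loops joining the ends of different coding genes by the distance between their anchors (kb, 6 ranges), as numbers (left) and as the share of loops with a coding gene end that have one on both anchors (right, %). Each line is 1 library. In all 4 libraries the share was highest at 20 to 50 kb, between 26.3% and 28.3%, and at 200 to 500 kb it was between 16.8% and 23.5%.

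At matched distance from 50 kb on, gene-gene loops were weaker than 1-end loops, and in the mean over libraries, though not in each library, the difference was larger in each longer range. Over all distances the median strength of gene-gene loops was 4.00 and 4.30 in LW, with 3.61 and 4.23 in MS, against 3.97, 4.36, 3.83 and 4.57 for 1-end loops. These medians lay close together, and the order was not the same in all libraries, since in LW replicate 1 gene-gene loops were the stronger. Averaged over 6 distance ranges, the difference was -0.133 and -0.220 in LW, with -0.287 and -0.398 in MS, a mean of -0.259 ± 0.112 on the -log10 FDR scale (SD, n = 4 libraries, p = 0.125 in the exact permutation test of paired signs, the smallest it can give).

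Every library was negative from 50 kb on. The mean difference was -0.194 ± 0.124 at 50 to 100 kb, -0.348 ± 0.166 at 100 to 200 kb, -0.394 ± 0.152 at 200 to 500 kb and -0.539 ± 0.142 over 500 kb (SD, n = 4 libraries, p = 0.125 in the exact permutation test for each). At 20 to 50 kb the mean was -0.129 ± 0.231 (p = 0.375, exact permutation test, n = 4), with LW replicate 1 above 0 at 0.123. At 5 to 20 kb the mean was 0.0473 ± 0.155 (p = 0.75, exact permutation test), with both LW libraries above 0 and both MS libraries below it.

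**Figure D2:**
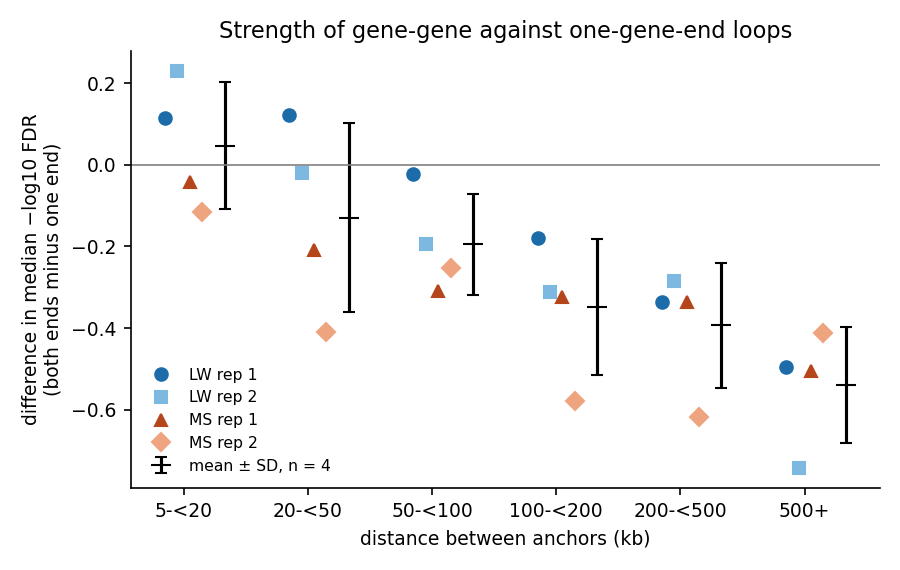
Difference in median strength (-log10 FDR) between loops with a coding gene end on both anchors and loops with one on 1 anchor, by the distance between anchors (kb). Points are the 4 libraries and black bars give their mean and SD. The mean falls from 0.0473 at 5 to 20 kb to -0.539 over 500 kb, and all 4 points lie below 0 in each range from 50 kb on.

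Among all deposited loops, gene-gene loops were called again in the same pair of bins of another library more often than 1-end loops. Of those of LW replicate 1, 33.7% were also called in LW replicate 2, against 29.6% of its 1-end loops. The shares were 37.8% and 35.5% for LW replicate 2, 33.2% and 28.4% for MS replicate 1, and 38.4% and 36.4% for MS replicate 2. All 4 libraries went the same way, by 3.27 percentage points ± 1.35 on average (SD, n = 4, p = 0.125 in the exact permutation test of paired signs, the smallest it can give). The 2 libraries of a breed were compared with each other, so their shares rest on the same shared loops, 1793 gene-gene loops in LW and 1571 in MS. The 4 differences thus come from 2 comparisons, and the SD and p treat them as 4. The direction of the mean did not hold where anchors 1 bin apart counted as the same (-2.01 points). With the FDR limit lowered to 0.001 the mean was 1.36 points (p = 0.25, exact permutation test). There MS replicate 2 went the other way, at 35.5% against 36.4%.

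Sharing with either library of the other breed was higher for gene-gene loops as well, at 45.8% and 56.0% in the LW lists, with 52.0% and 62.5% in the MS lists. For 1-end loops it was 38.1%, 47.2%, 45.4% and 58.1%, a mean difference of 6.87 points ± 1.86 (SD, n = 4, p = 0.125, exact permutation test). A loop shared across the breeds counts in the lists of both, so these 4 differences are not independent either. The difference kept its sign when averaged over distance ranges (4.98 points) and over ranges of strength (8.06 points). For the other replicate of the breed the same averages were 2.15 and 4.25 points.

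**Figure D3:**
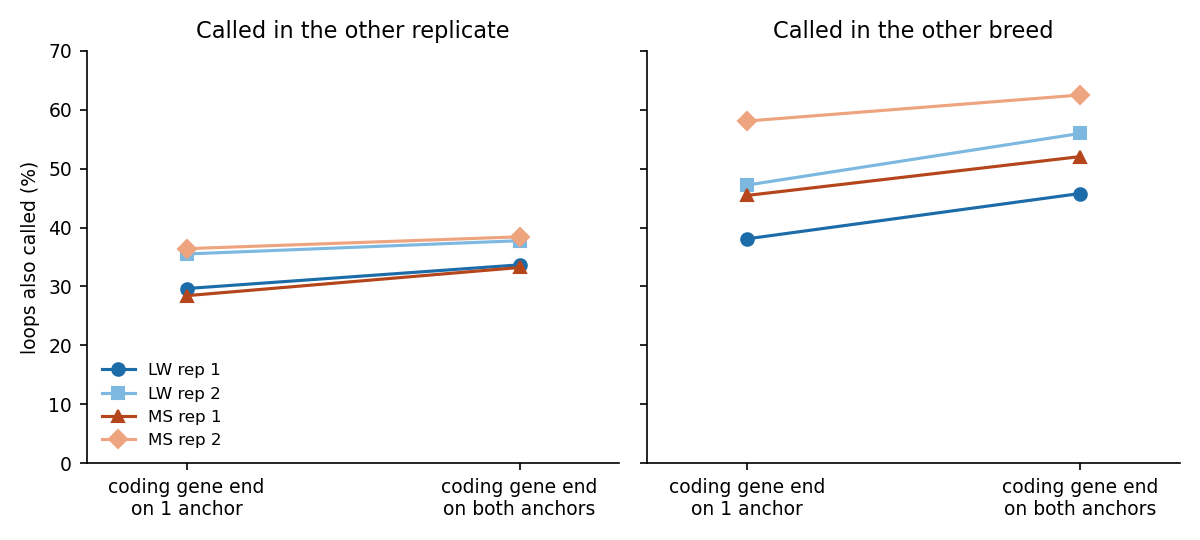
Share of loops (%) also called, in the same pair of bins, in the other replicate of the breed (left) or in either library of the other breed (right), for loops with a coding gene end on 1 anchor or on both. Each line joins the 2 classes within 1 library. All 8 lines rise, from 29.6% to 33.7% for LW replicate 1 and from 36.4% to 38.4% for MS replicate 2 in the left panel.

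In the union of the 4 lists, 7265 gene-gene loops (61.7%) were called in 1 library, 2596 (22.0%) in 2, 1227 (10.4%) in 3 and 689 (5.85%) in all 4. The 1-end loops were called in 1 library in 67.1% and in all 4 in 4.39%. Gene-gene loops called in both LW libraries and in neither MS library were 451 (3.83%), and those called in both MS libraries and neither LW library were 308 (2.62%). Gene-gene loops called in both replicate 1 libraries and neither replicate 2 library were more than either of these, 602 (5.11%), as were those of both replicate 2 libraries only, 662 (5.62%). The same 4 shares, in this order, were 4.37%, 2.52%, 4.58% and 4.27% of 1-end loops. Of loops with no coding gene end they were 4.52%, 2.25%, 4.52% and 3.50%. Gene-gene loops called in all 4 libraries had a median distance of 40 kb, those called in 1 library 65 kb.

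The strongest gene-gene loop present in all 4 libraries joined DDIT4, an inhibitor of mTORC1 signalling that is induced by stress, with DNAJB12, a chaperone of the endoplasmic reticulum. Its anchors were chr14:75115001-75120000 and chr14:75170001-75175000 on Sscrofa11.1, 55 kb apart. Its strength was 146 and 300 in LW, with 180 and 300 in MS, where 300 is the value at which strength was capped. Both replicate 2 libraries reached the cap and both replicate 1 libraries did not, so that the breeds overlapped.

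LSM4, a subunit of a complex that binds the end of U6 RNA, was joined over 35 kb (chr2:59495001-59500000 with chr2:59530001-59535000) with JUND, a member of the AP-1 transcription factors. The strength was 120 and 184 in LW, with 88.6 and 156 in MS. A further set lay around ADAMTSL4 on chromosome 4. Its anchor at chr4:98575001-98580000 was looped with that of MCL1, an anti-apoptotic BCL2 family member, at chr4:98560001-98565000 (72.1 and 128 in LW, 73.4 and 203 in MS), and with that of ENSA, an inhibitor of protein phosphatase 2A, at chr4:98535001-98540000 (79.7 and 88.3 in LW, 50.4 and 96.4 in MS).

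The strongest contact between muscle genes joined the fast skeletal troponins. The anchor chr2:1250001-1255000 holds ends of TNNI2, the fast inhibitory subunit, and of SYT8, and the anchor chr2:1295001-1300000 holds ends of TNNT3, the fast tropomyosin-binding subunit, and of LSP1. The strength was 45.2 and 154 in LW, with 41.6 and 117 in MS. In both breeds replicate 2 was the higher, and the breeds overlapped. At this resolution the genes of an anchor cannot be told apart.

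The other pairs among the 10 strongest were UCHL5 with RGS2 over 180 kb, ARID1A with PIGV over 80 kb, VEGFA with C7H6orf223 over 245 kb, SYNM with TTC23 over 15 kb and ERAP1 with LNPEP over 150 kb. ARID1A had an end on both anchors of its loop, so that this loop also joins ends of ARID1A itself. RGS2 is a regulator of G protein signalling, ARID1A a subunit of the SWI/SNF remodelling complex, VEGFA the vascular endothelial growth factor and SYNM an intermediate filament protein of muscle. The loop of UCHL5 and RGS2 was the only one of the 10 in which both LW libraries (136 and 91.4) lay above both MS libraries (43.5 and 23.0), and that of ARID1A and PIGV the only one with the reverse (73.5 and 60.3 in LW, 76.1 and 79.8 in MS). In the fit across all loops described below their adjusted p was 0.665 and 1.00 in limma.

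**Figure D4:**
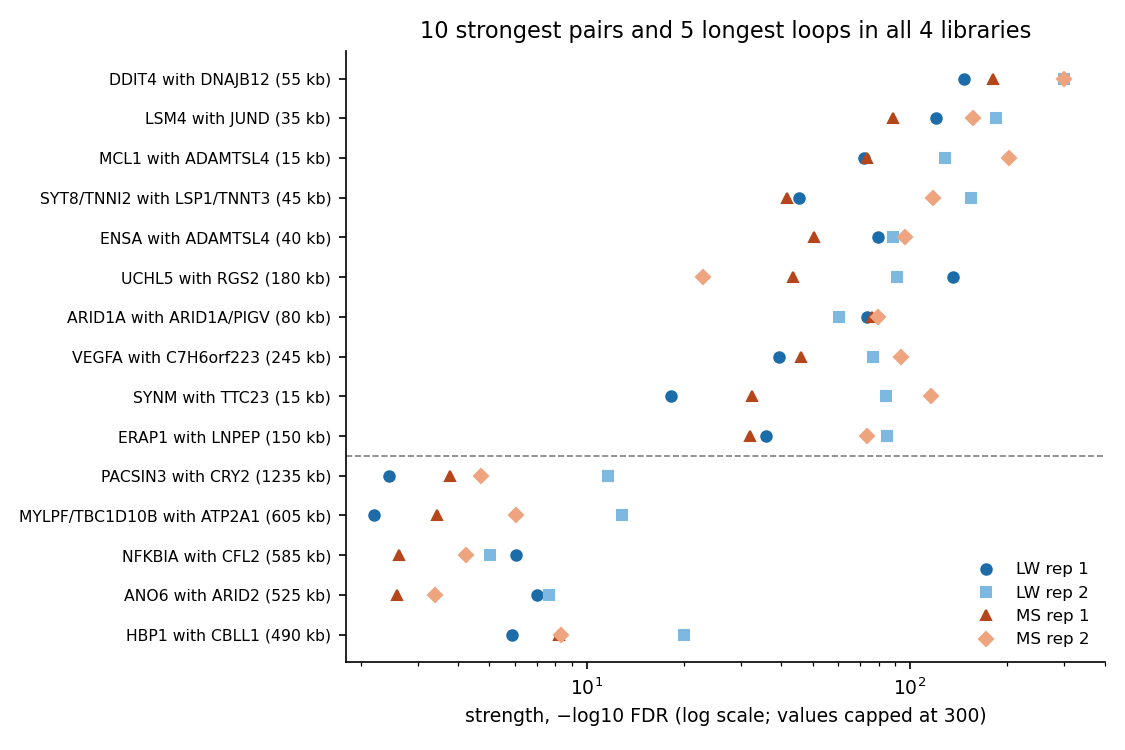
Strength (-log10 FDR, log scale) of the 10 strongest gene pairs and, below the dashed line, of the 5 longest gene-gene loops called in all 4 libraries, 1 symbol per library. The gene labels give the anchors' coding genes (unnamed genes left out) and the distance. For DDIT4 with DNAJB12 both replicate 2 libraries sit at the cap of 300, and the 5 longest loops lie between 2.20 and 20.1.

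Among the gene-gene loops of all 4 libraries, the longest spanned 1235 kb and 19 other coding genes, from PACSIN3, a membrane-shaping protein of muscle, to CRY2, a repressor of the circadian clock. Its strength was 2.44 and 11.6 in LW, with 3.77 and 4.70 in MS. The next, over 605 kb and across 42 coding genes, joined the anchor of MYLPF, the fast skeletal regulatory myosin light chain, and TBC1D10B (chr3:17940001-17945000) with that of ATP2A1, the calcium pump of fast fibres (chr3:18545001-18550000). Its strength was 2.20 and 12.9 in LW, with 3.44 and 6.04 in MS, and no coding gene pair joined in all 4 libraries had more genes between than the 43 between MYLPF and ATP2A1.

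NFKBIA, the inhibitor of NF-kappaB, was joined with CFL2, the muscle cofilin, over 585 kb and 8 genes (6.06 and 5.01 in LW, 2.63 and 4.22 in MS). ANO6 and ARID2 were joined over 525 kb with no coding gene between (7.00 and 7.64 in LW, 2.58 and 3.40 in MS), and HBP1 and CBLL1 over 490 kb and 5 genes (5.89 and 20.1 in LW, 8.19 and 8.31 in MS). For the first 2 of these loops both LW libraries lay above both MS libraries, yet neither passed in the fit across all loops (adjusted p = 1.00 and 0.674 in limma).

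Gene-gene loops joined 8814 and 7661 different pairs of coding genes in LW, with 8009 and 6687 in MS, and 31.4% to 35.9% of these pairs were neighbours with no other coding gene between them. The share of neighbours was 33.6% and 35.9% in LW, with 31.4% and 35.8% in MS. The breeds overlapped (difference of 1.18 points, p = 0.667, 2-sided exact permutation test, n = 2 per breed), and without MS replicate 1 the difference was -1.01 points. Pairs with 5 or more coding genes between them were 16.7% and 15.1% in LW, with 17.9% and 16.4% in MS, and the largest number between was 61, in LW replicate 2.

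Over all libraries, 15924 pairs were joined, of 9439 coding genes, which is 48.3% of the 19550 coding genes on the assembled chromosomes. Of all 19530 pairs of neighbouring coding genes, 25.4% were joined in any library. Pairs joined in each of the 4 libraries numbered 2134, and of these 41.2% were neighbours and 9.61% had 5 or more genes between.

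Most genes had few partners. Over all libraries the median was 2, with 2806 genes (29.7%) having 1 partner and 2134 genes (22.6%) having 5 or more. Over loops called in all 4 libraries, 1473 genes had a partner and 30 of them (2.04%) had 5 or more. The highest number was 8, held by DCAF11, a substrate receptor of the CUL4 ubiquitin ligase, and by CNPPD1 and RETREG2, which share their loops since their ends lie within the same anchor. The partners of DCAF11 on chromosome 7 included PSME1, a proteasome activator subunit, IRF9, a transcription factor of the interferon response, NEDD8 and FITM1. ADAMTSL4 and NDUFB6, the other genes named among the highest, had 5 each.

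A larger share of the genes of muscle contraction, energy supply and the housekeeping lists was joined to another coding gene than of coding genes at large. Counted among genes with loops in each library, the shares of the contractile, glycolytic, calcium and myogenic lists lay on both sides of that of all coding genes. Of all coding genes, 17.1% were joined in each of the 4 libraries. Of the contractile and Z-disc list 21 of 43 genes (48.8%) were, of glycolysis and glycogen 13 of 30 (43.3%), of calcium handling and excitation 9 of 23 (39.1%), of the myogenic regulators 6 of 18 (33.3%) and of the nuclear oxidative phosphorylation genes 15 of 49 (30.6%). The oxidative phosphorylation list held 77 symbols, and only the 49 found among the coding genes are counted. Of the housekeeping lists, proteasome subunits had 15 of 39 (38.5%) and RNA polymerase II and general transcription factors 25 of 80 (31.25%). Cytosolic ribosomal proteins had 23 of 82 (28.0%) and mitochondrial ribosomal proteins 19 of 73 (26.0%). Genes of these lists mostly carried loops: all 43 contractile genes had a loop at an end in some library, against 62.6% of all coding genes. Of the genes with a loop in some library, 34 of 43 contractile genes (79.1%) were joined in some library, and 77.1% of all such coding genes.

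Among genes with a loop in each of the 4 libraries, 54.1% of all coding genes were joined in each. The same share was 56.8% for contractile genes (21 of 37), 52.0% for glycolysis (13 of 25), 45.0% for calcium handling (9 of 20) and 60% for myogenic regulators (6 of 10). It was higher for oxidative phosphorylation, 75% (15 of 20), and for the housekeeping lists, with proteasome subunits at 88.2% (15 of 17), RNA polymerase II and general transcription factors at 73.5% (25 of 34), cytosolic ribosomal proteins at 71.9% (23 of 32) and mitochondrial ribosomal proteins at 67.9% (19 of 28). These shares are descriptions over small lists and were not tested.

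In the lists of other cell types, 4 of 10 adipocyte, 5 of 9 endothelial, 5 of 10 leukocyte, 3 of 10 fibroblast, 4 of 7 erythroid and 1 of 9 neuron genes were joined in at least 1 library, beside 48.3% of all coding genes. Joined in every one of the 4 libraries was 1 gene each of the adipocyte (LIPE), endothelial (ESAM), leukocyte (LCK) and erythroid (EPOR) lists, of 6, 5, 1 and 1 genes with a loop in all 4. None was among the fibroblast genes, of which 3 had a loop in all 4 libraries, or the neuron genes, of which none had. The LCK loop, between adjacent bins, had 4.82 and 3.96 in LW, with 6.15 and 5.81 in MS.

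Among calcium genes, the neighbours CACNG4 and CACNG1, which encode gamma subunits of voltage-gated calcium channels, CACNG1 that of skeletal muscle, were joined between adjacent bins (36.4 and 32.2 in LW, 30.7 and 44.1 in MS). STAC3, an adaptor of excitation-contraction coupling, shared a loop with R3HDM2 between adjacent bins (8.41 and 38.3 in LW, 10.5 and 33.8 in MS). STAC3 had an end on both anchors of this loop. CASQ1, the calcium store protein of fast fibres, was looped with 2 unnamed genes over 35 kb in 3 libraries and not in MS replicate 1 (15.5 and 37.8 in LW, 29.2 in MS replicate 2).

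The contractile loops after the troponins were those of CAPN3, the muscle calpain, and of TPM2, beta-tropomyosin. CAPN3 was joined with an unnamed gene over 80 kb at 59.4 and 78.5 in LW and at 53.1 in MS replicate 2, and TPM2 with ARHGEF39 and CCDC107 over 25 kb at 20.5 and 64.2 in LW and 94.1 in MS replicate 2. Neither loop was called in MS replicate 1.

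Of the myogenic regulators, MYF6, a myogenic factor of differentiated fibres, was joined with PTPRQ over 20 kb at 14.3 and 46.8 in LW, with 19.96 and 49.98 in MS. VGLL2, a cofactor of TEAD factors in muscle, was joined with ROS1 in LW replicate 1 (13.1) and MS replicate 2 (24.6) only.

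Of the glycolytic genes, PYGM, the muscle glycogen phosphorylase, shared an anchor with SF1, a splicing factor, and this anchor was looped with the other end of SF1 over 15 kb (24.0 and 41.6 in LW, 18.7 and 32.9 in MS). The strongest loops of ENO3, the muscle enolase, GAPDH and GYS1, the muscle glycogen synthase, were each called in 3 libraries. Of the oxidative phosphorylation genes, NDUFB6, a subunit of complex I, was joined with ACO1, the cytosolic aconitase that also binds iron-responsive RNA elements, over 135 kb. This loop varied little, at 22.4 and 24.4 in LW, with 21.5 and 24.0 in MS. NDUFB3, a subunit of complex I as well, was joined with CFLAR, an inhibitor of caspase 8, over 35 kb (17.8 and 27.3 in LW, 9.06 and 29.6 in MS).

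Among the housekeeping lists, RPL4, a protein of the large ribosomal subunit, was joined with MAP2K1, a kinase of the ERK pathway, over 95 kb (25.6 and 12.3 in LW, 16.96 and 14.3 in MS), and RPL3 with CBX7, a Polycomb protein, over 150 kb (21.9 and 11.9 in LW, 14.6 and 8.04 in MS). PSMA3, a proteasome core subunit, was joined with ARID4A over 45 kb (15.1 and 28.8 in LW, 12.5 and 20.1 in MS) and PSMA6 with NFKBIA over 95 kb (9.05 and 20.8 in LW, 13.0 and 14.1 in MS). TAF4, a subunit of TFIID, was joined with LSM14B over 20 kb (25.5 and 21.7 in LW, 31.4 and 13.3 in MS) and MRPL12 with HGS between adjacent bins (19.9 and 54.7 in LW, 4.80 and 58.7 in MS). In each of these 6 loops the breeds overlapped. MRPS23, a mitochondrial ribosomal protein, was joined with SRSF1, a splicing factor, over 150 kb at 5.70 and 9.62 in LW, with 16.5 and 17.3 in MS, and there both MS libraries lay above both LW libraries (adjusted p = 0.374 in limma).

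Members of the same gene family were joined with each other in few places. Of the neighbouring coding genes that both had names, 648 of 14883 pairs (4.35%) shared the letters of their symbols before the number, and of the neighbours joined in any library 133 of 4402 (3.02%) did. Where only neighbours with a loop at an end of each gene were counted, the share was 2.64% (224 of 8484), and among neighbours joined in all 4 libraries 3.29% (26 of 791). Joined neighbours were thus not richer in such pairs than all neighbours, and held slightly more of them than neighbours that both had loops.

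Of the HOX genes, the clustered homeobox factors of body axis patterning, 45 of 147 pairs of members within 2 Mb were joined in any library and 7 in all 4. The strongest, HOXA10 with HOXA9 on chromosome 18 between adjacent bins, had 14.8 and 13.6 in LW, with 26.6 and 34.5 in MS. Both MS libraries lay above both LW libraries, with an adjusted p of 0.377 in limma. HOXA9 had an end on both anchors of this loop. Of the interferon-induced and guanylate-binding genes 6 of 11 pairs were joined, of the troponins 2 of 3 and of the zinc finger genes 57 of 809. The share joined among all coding gene pairs within 2 Mb was not computed. These family counts, and those of keratins and collagens below, therefore cannot be read as high or low. IFIT2 and IFIT1, antiviral proteins that bind RNA, were joined over 45 kb in LW (7.11 and 11.3) and in MS replicate 2 (26.7).

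No pair was joined among 262 pairs of keratins or 7 pairs of collagens. Of 33 keratin genes 2 had a loop at an end in any library, whereas 25 of 42 collagen genes did. The myosin heavy chains MYH4 and MYH1 of fast fibres were joined between adjacent bins at 13.6 in LW replicate 1 and at 11.5 and 2.45 in MS, and were not called in LW replicate 2. HSPD1 and HSPE1, the mitochondrial chaperonin and its partner, were joined in all 4 libraries (6.24 and 17.1 in LW, 2.62 and 9.54 in MS). HSPE1 had an end on both anchors of this loop. Weaker or less shared family pairs were ZNF692 with ZNF672, HIST1H2BD with HIST1H3E, SP6 with SP2, PCDH1 with PCDH12 and SLC16A11 with SLC16A13, called in between 1 and 3 libraries. SLC16A11 and SLC16A13 each had an end on both anchors of their loop.

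Of 11 genes chosen from those the study discusses, 8 had a gene-gene loop in some library, and SLN, KLF6 and TTN had none. Of all coding genes 48.3% had one, and of coding genes with a loop in any library 77.1%. PRKAG3, the muscle gamma subunit of AMPK, had 6 such loops, with 3 and 2 in the LW lists, with 2 and 2 in the MS lists, the strongest to ZNF142 and BCS1L over 160 kb, at 4.55 in LW replicate 2 and 3.29 and 3.01 in MS. POPDC2, a membrane protein of striated muscle, had 7, the strongest to ADPRH over 80 kb (13.0 and 32.7 in LW, 16.6 in MS replicate 2). MXRA8 had 8, of which that to AURKAIP1 and CCNL2 was called in all 4 libraries (5.49 and 7.78 in LW, 3.88 and 2.07 in MS).

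TAB1, an activator of the kinase TAK1, had 3, the strongest to RPL3 over 70 kb, called at 3.39 and 6.90 in LW and in neither MS library. TAF11 had 2, that to UHRF1BP1 at 2.09 in LW replicate 1 and 3.31 and 2.05 in MS. KCNS3 with MSGN1 (5.78 in LW replicate 2), LMOD2 with WASL (29.9 in LW replicate 2) and DYSF with PAIP2B (13.7 in MS replicate 2) were each called in 1 library.

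To ask which gene-gene loops differed in strength between the breeds, all loops called in at least 2 of the 4 libraries were fitted together with limma on log2(strength + 1), an absent loop being set at 0, after quantile normalization. Of 37791 loops, 4512 were gene-gene. At an absolute log2 difference over 1.5 and an unadjusted p under 0.05, 307 gene-gene loops were higher in LW (6.80%) and 320 in MS (7.09%), against a background over all loops of 9.84% higher in LW and 8.05% in MS. For 1-end loops the shares were 9.25% and 8.14%. No loop of any class passed after Benjamini-Hochberg adjustment in limma, where the smallest adjusted p was 0.168, and 627 gene-gene loops had an unadjusted p under 0.05. With a pseudocount of 0.1 in place of 1, 591 gene-gene loops passed the adjustment, as did 6225 of all 37791 loops.

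These calls mainly restated presence and absence. Of the 307 loops higher in LW, 306 had been called in both LW libraries and in neither MS library, and of the 320 higher in MS 308 showed the reverse. With another scaling the split moved: without normalization 456 gene-gene loops were higher in LW and 308 in MS, so that LW took 59.7% of the calls against 49.0%. This move was not particular to gene-gene loops. Over all 37791 loops the calls went from 3720 in LW and 3044 in MS to 5417 and 2908.

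The loop of smallest p among those higher in LW spanned 125 kb on chromosome 6, at 28.2 and 38.8 in LW. TESK2 had an end on both of its anchors, beside TOE1 on one and an unnamed gene on the other. Next came IFFO2 with UBR4 (16.1 and 22.8), TRAF3IP1 with ASB1 (15.9 and 17.9), MYOG with CHIT1 (14.6 and 17.9) and SLC2A11 with CHCHD10 (15.7 and 32.8). None of these 5 was called in an MS library. MYOG is myogenin, the factor that drives myoblast differentiation, and its loop ran from chr9:113780001-113785000 to chr9:113925001-113930000 across 3 coding genes.

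On the MS side the first was PDK4, the kinase that inhibits pyruvate dehydrogenase, with ASB4, over 75 kb (chr9:75260001-75265000 with chr9:75335001-75340000), at 29.8 and 33.2 in MS. TBX6 and YPEL3 with MAPK3 (15.0 and 21.0), SETD1B and RHOF with TMEM120B (14.1 and 23.9), BCL6B with SLC16A11 and SLC16A13 (13.4 and 22.4) and ATL1 with SAV1 (15.2 and 17.6) followed. None of these was called in an LW library, and all 10 loops had the same adjusted p of 0.168 in limma. BCL6B and SAV1 had an end on both anchors of their loops, as TESK2 had, so that these loops also join ends of the same gene.

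The GRID-seq lists give, for each RNA enriched on chromatin, the 1-kb DNA bins on which it was found, and so allow the question of whether the RNA of a gene at one anchor was listed on the other anchor. The lists held 571 and 681 RNAs in LW, with 519 and 649 in MS, of which 372 and 445 in LW, with 381 and 476 in MS were matched to coding genes. The column read as their RNA reads summed to 8181721 and 9943666 in LW, with 7172517 and 9381797 in MS. Genes joined by gene-gene loops of their breed were listed in 3.39% and 3.95% of cases in LW and in 3.55% and 4.40% in MS. Genes with 1-end loops only were listed in 2.66% and 3.42% in LW, with 3.32% and 4.05% in MS, and all other coding genes in 0.144% to 0.285%.

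An RNA was listed less often on the other anchor where that anchor held another coding gene's end. Only genes with a listed RNA were used, each RNA and other anchor being counted once as a case. Other anchors that overlapped the listed position of the RNA itself were left out. Gene-gene loops gave 777 and 884 such cases in LW, with 691 and 864 in MS. Averaged over 6 distance ranges, the RNA had a listed bin on the partner anchor in 41.8% and 43.5% of gene-gene cases in LW and in 36.0% and 39.5% in MS. For the other anchor of 1-end loops it was 51.8% and 56.6% in LW, with 48.5% and 55.8% in MS. The difference was -13.0 points, lower in 4 of 4 libraries (p = 0.125 in the exact permutation test of paired signs, the smallest it can give). At 5 to 20 kb the classes lay close together, with 93.2% against 88.8% and 89.9% against 92.4% in LW and 87.3% against 90.5% and 91.8% against 91.7% in MS. At 100 to 200 kb they were apart in each library, with 22.7% against 49.4% and 27.8% against 52.9% in LW and 22.9% against 36.8% and 25.7% against 46.3% in MS.

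Within RNAs that had loops of both kinds, between 207 and 273 RNAs per library, the difference was -5.19 points, with 49.9% against 50.6% and 51.8% against 57.9% in LW and 41.5% against 48.0% and 46.1% against 53.5% in MS. Comparing within RNAs moved the value by over 1.5 times, and all 4 libraries kept the sign.

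**Figure D5:**
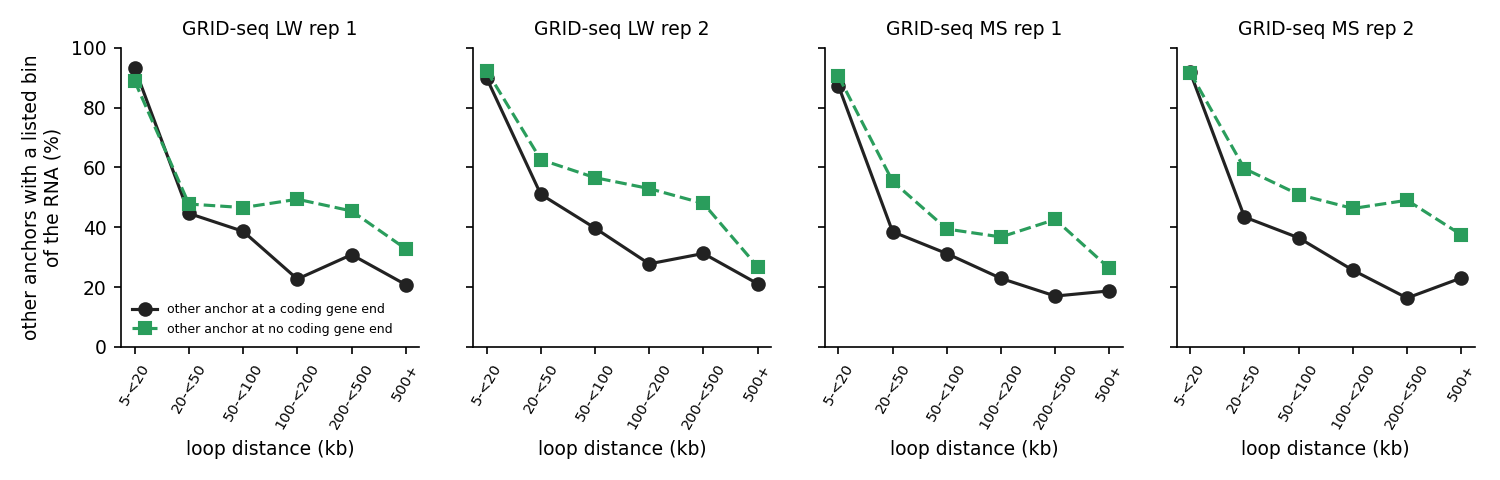
Share of cases (%, each RNA and other anchor counted once) in which the RNA of the coding gene at one anchor had a listed GRID-seq bin on the other anchor, by loop distance (kb), for other anchors at another coding gene's end (circles) and at no coding gene end (squares), in 4 GRID-seq libraries. The lines start together, at 87.3% to 93.2% at 5 to 20 kb, and from 20 kb on the circles lie below the squares in every range and library.

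The DDIT4 RNA, listed in all 4 GRID-seq libraries, was found on the anchor of DNAJB12 with a summed signal of 4623 and 5078 in LW, with 4258 and 3615 in MS. On the strongest troponin loop, TNNT3 RNA was listed on the anchor of TNNI2 (3851 and 2704 in LW, 2858 and 1890 in MS), but that anchor overlaps the outline of the TNNT3 RNA in the lists. Anchors with such an overlap were left out of the comparison above. TNNI2 RNA, also listed in all 4 libraries, had no bin on the anchor of TNNT3 in any of them. ATP2A1 RNA was found across the 605 kb to the anchor of MYLPF in LW replicate 1 (86.1) and MS replicate 2 (96.2) and in neither of the others. The signal is the authors' background-corrected value summed over the 1-kb bins of an anchor.

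The strand of a gene was known only where its RNA was in a GRID-seq list, so start and end could be told apart for a small share of genes. Anchors were counted once per loop and gene, so that an anchor with many loops was counted many times. Of 1929 such counts for gene-gene loops, 69.98% lay at the gene's start, 22.1% at its end and 7.93% reached both. Of 6028 such counts for 1-end loops the shares were 75.4%, 17.6% and 7.00%. Both genes were of known strand in 125 cases, of which 52 (41.6%) joined start with start, 36 (28.8%) start with end and 11 (8.80%) end with end.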

How the data were processed

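The members and gene lists were chosen with earlier results of these data known. Per the study's methods, the authors trimmed the bridge linker (ChIA-PET2), mapped reads to Sscrofa11.1 (BWA-MEM), kept unique pairs (Pairtools) and called loops with FitHiChIP between H3K27ac ChIP-seq peaks and all 5-kb bins from 5 kb to 2 Mb. Loop calling there included a correction for bias from coverage. The methods merge the samples of a breed for later steps, whereas the deposited lists are 1 per library. The deposited loop lists hold an FDR-adjusted p-value per loop, with no header; these are not counts, so the study's DESeq2 test, run there on -log10 FDR summed per promoter, was not repeated. For GRID-seq the authors mapped both ends with Bowtie2 2.2.5 (version per the labels). The deposited lists hold a whole-number count, read as RNA reads, and a background-corrected signal per 1-kb bin.

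Strength was -log10 FDR, capped at 300 (5 values at or past it). Gene ends came from RefSeq Sscrofa11.1 genes on 18 autosomes, X and Y; 1113 coding genes elsewhere were left out, and 16.5% of symbols were LOC numbers. This table holds no strand. Distance ranges start at 5, 20, 50, 100, 200 and 500 kb. Class differences were tested over libraries by exact permutation, and loop strength between breeds by limma 3.58.1 in R 4.3.3 with a pseudocount of 1. On simulated data it recovered the changed loops. These had identical values within each breed before normalization, so their recovery does not show that real changes would be found. Its unadjusted thresholds called a larger share of unchanged loops, whose values were shuffled among libraries, than of the real gene-gene loops. Python 3.11.15 was used. Named were the 10 strongest pairs and 5 longest loops in all 4 libraries, the 5 loops of smallest p per direction, the strongest pair per family, the 5 genes with most partners, up to 4 genes per list, and some of the genes the study discusses. For a list gene joined in all 4 libraries the strongest loop is given, which need not itself be called in all 4. Some loops that this rule names are not reported here.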

Additional observations from a re-analysis of the deposited data

Results flagged for a closer look

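At 5 to 20 kb, the difference in median strength between gene-gene and 1-end loops (-log10 FDR) was 0.114 in LW replicate 1 and 0.231 in LW replicate 2, and -0.0416 in MS replicate 1 and -0.115 in MS replicate 2. It was picked out because both libraries of one breed lay above 0 and both of the other below. The difference between the breeds was not tested, and in the ranges from 50 kb on all 4 libraries were below 0.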

How the results depend on the processing

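Leaving out each library in turn, the gene-gene share differed between LW and MS by -2.10 to -0.341 points, and neighbours by -1.01 to 3.36 points (-1.01 without MS replicate 1). The median distance of the classes differed by -13.3 to -11.7 kb and their strength by -0.302 to -0.213. Sharing differed by 3.14 to 3.40 points and RNA at the other anchor by -14.0 to -11.9 points. For sharing, leaving out a library left only the 2 libraries of the other breed, which share the same loops. Sharing turned to -2.01 points where anchors 1 bin away counted, and was 1.36 points with the FDR limit lowered to 0.001. With loops called in at least 1 library, limma called 177 gene-gene loops higher in LW and 186 in MS, beside 2376 and 2033 of all 122406 loops. With loops called in all 4, it called 5 and 1 of 689 gene-gene loops, beside 45 and 50 of all 4632. With the FDR limit lowered to 0.001, it called 224 and 202 of 3151 gene-gene loops, beside 2772 and 1999 of all 26480. With a pseudocount of 0.1, 591 gene-gene loops passed an adjusted p of 0.05 in limma, against 0 of them otherwise. The cause was not tested. Of 94 recomputed values of the comparisons, 86 were kept by a rule that differed by kind of value. Limma counts had to stay within 1.5 times the main count, or at 0. For all others only the sign of the mean had to hold. The distance under the overlap rule (-1.25 kb) and the difference within RNAs (-5.19 points) were thus counted as kept. None of the class tests could pass 0.05 with 4 libraries.

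With the replicate number as a block, limma called 315 gene-gene loops higher in LW and 340 in MS, beside 3811 and 3140 of all 37791 loops. The deviations of the same-numbered libraries correlated at 0.347 over all loops, but 2 pairs do not show that the numbers pair the samples, and libraries shared a number only. Leaving out loops between adjacent bins, the block for the gene-gene share and neighbours, the distance from the RNA's body and the comparison within each RNA were chosen after seeing the data. Counting only the transcription start as the gene end was not run, since the gene table used holds no strand.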
